A study of Mus musculus with 2 samples.

Results

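Plasmacytoid dendritic cells (pDCs) of CT26 tumours were taken from single-cell RNA data by a marker gate that found 103 barcodes in the mock library and 107 in the PTIR1 library, 210 of 19839 deposited barcodes in all. A barcode stands for a droplet, usually with 1 cell. The gate kept barcodes with at least 200 genes, at most 10% mitochondrial UMIs (unique molecular identifiers, each marking 1 captured transcript) and at least 1000 UMIs, which left 6642 mock and 6570 PTIR1 barcodes. Of these it took barcodes in which Siglech, Ccr9 and Cox6a2 together had at least 3 UMIs and at least 0.05% of the UMIs, with Adgre1, a macrophage gene, and Cd3e, a T cell gene, both at 0. The barcodes were thus chosen by the measured UMIs of these 5 genes, whose levels describe the gate and support nothing below.

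pDCs are a rare dendritic cell type that arises in the bone marrow under the transcription factor TCF4. They sense viral and self nucleic acids in endosomes through TLR7 and TLR9, and are best known for the large amounts of type I interferon they can release. In tumours they are often found in a quiet state, and they present antigen less efficiently than conventional dendritic cells (cDCs).

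CT26 is a colon carcinoma line of BALB/c mice. The mock group was BALB/c tumour tissue with the genotype given as mock, and the other group was the same with tumours expressing PTIR1, which the series title places as an inhibitor of the immunoproteasome. Infiltrating cells of each group gave 1 droplet library of transcript 3' ends. The number of animals, their age and sex, the time of growth, and whether tumours were pooled or the line was a clone are not given in the sources used here. With 1 library per group there is no replicate and no test of a group difference. Every interval below is a 95% interval for counting error only, and a difference between the groups cannot be told apart from a difference between these libraries.

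The gated barcodes had a median of 11954 UMIs in mock (1036 to 62829) and 11394 in PTIR1 (1070 to 52731). They held 1208458 and 1348170 UMIs in all. The libraries shared 30 deposited barcodes, of which 0 were in the mock gate and 1 in the PTIR1 gate. PTIR1 has no row of that name in the gene table, so the label could not be checked by it.

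The gate was set beside pDC markers it did not use. A list of 14 such genes, among them Tcf4, Bst2, the transcription factor Runx2 and the kallikrein Klk1, took a median of 1.13% of a gated barcode's UMIs in mock and 1.04% in PTIR1. Barcodes gated in the same way as cDCs took 0.051% and 0.0301%, B cells 0.0773% and 0.0672%, and macrophages 0.0494% and 0.0429%. By these markers the label held for most barcodes, and 87 mock and 96 PTIR1 barcodes had at least 0.5% of their UMIs in them. The list was chosen with earlier results of these data known, and barcodes of the pDC gate were left out of the comparison classes. The comparison is therefore not an independent check. All 3 positive gate genes were seen in 89 mock and 95 PTIR1 barcodes. Just inside the threshold, 6 mock and 4 PTIR1 barcodes had a sum of 3 or 4 UMIs, and the unused markers took a median of 0.262% and 0.5005% of their UMIs. Just outside, 18 mock and 7 PTIR1 barcodes had a sum of 2, with medians of 0.224% and 0%.

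A part of the gated barcodes also carried RNA of another lineage. By a rule added after the data were seen, 25 mock and 28 PTIR1 barcodes had at least 10 UMIs of macrophage markers making up at least 0.2% of their UMIs, or at least 10 UMIs of neutrophil, NK cell, T cell, B cell, mast cell, fibroblast or CT26 tumour cell markers. Macrophage markers were the most frequent, in 22 and 20 barcodes, and T cell markers passed in 0 and 0. The gate's own exclusions had already removed 16 mock and 29 PTIR1 barcodes with Adgre1, and 5 and 4 with Cd3e. The macrophage and T cell counts are therefore partly fixed by the gate. Neutrophil markers passed in 1 mock and 6 PTIR1 barcodes. In these barcodes the unused pDC markers took a median of 0.405% in mock and 0.567% in PTIR1, against 1.22% and 1.11% in the remaining 78 mock and 79 PTIR1 barcodes, called single-lineage barcodes from here on. A lone mock single-lineage barcode had 0% of the unused markers. The single-lineage barcodes had medians of 12199.5 and 10497 UMIs, and 2 mock but 10 PTIR1 barcodes lay under 3000 UMIs. The barcodes with another lineage had medians of 6010 UMIs in mock and 19037.5 in PTIR1, and 10 mock but 1 PTIR1 lay under 3000. The rule thus set apart barcodes of unlike depth in the libraries.

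**Figure D1:**
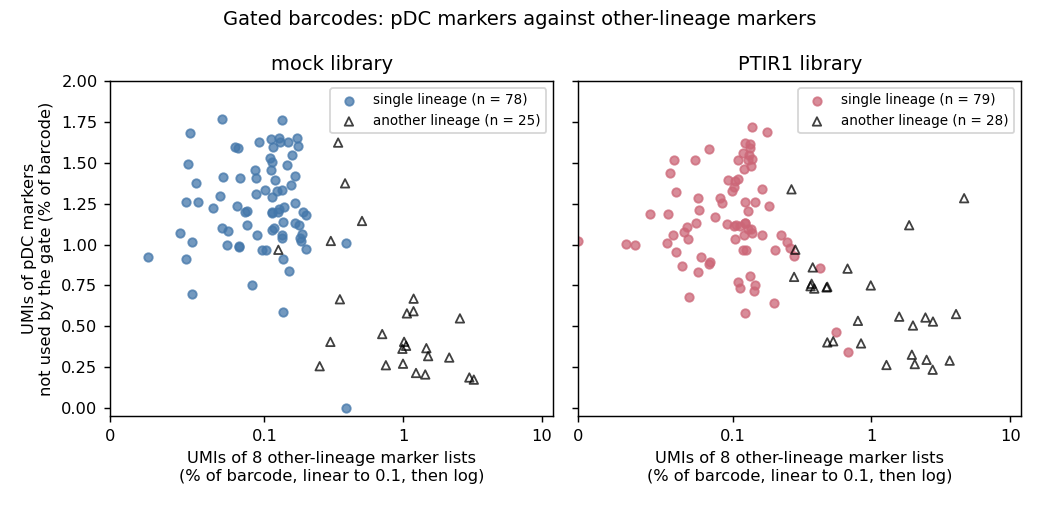
Each point is a gated barcode. The vertical axis is the percentage of its UMIs from 14 pDC markers that the gate did not use, the horizontal axis the percentage from 8 marker lists of other lineages (linear to 0.1%, then log). Filled circles are the 78 mock and 79 PTIR1 single-lineage barcodes, open triangles the 25 and 28 barcodes with another lineage, which mostly lie lower and to the right.

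The other lineages weighed unequally on the libraries. Over all gated barcodes the 10 macrophage markers summed to 2152 CPM in mock and 5888 in PTIR1 (CPM, UMIs of a gene over all UMIs of the barcodes, scaled to 1000000), the 8 neutrophil markers to 165 and 1525, and the 8 mast cell markers to 458 and 22.3. In the single-lineage barcodes the same sums were 902 and 810 CPM for macrophage, 28.9 and 72.5 for neutrophil, and 60.9 and 15.5 for mast cell markers. The 8 NK cell markers summed to 47.0 and 101 CPM there, and the 8 T cell markers to 42.8 and 19.4. The neutrophil gene Ly6g and the NK cell gene Klra8 were at 0 in all gated barcodes of both libraries, so their 0 in the single-lineage barcodes says nothing of that choice. Group comparisons are therefore given for the single-lineage barcodes first, with all gated barcodes beside them where the values differ.

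The share of pDCs was alike in the libraries within counting error. Gated barcodes made up 1.55% of kept barcodes in mock (1.27 to 1.88) and 1.63% in PTIR1 (1.34 to 1.96), a ratio of 1.05 (0.803 to 1.37). Single-lineage barcodes made up 1.17% and 1.20%, a ratio of 1.02 (0.750 to 1.40). These shares are of captured barcodes and do not give numbers of cells in the tumours.

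Beyond the gate's own genes, many genes had higher summed levels than in the other dendritic cells. The cDC gate held 50 mock and 42 PTIR1 barcodes. Barcodes that passed both gates were left out of the cDCs and stayed with the pDCs. Genes entered this comparison by their UMIs in the pDC barcodes, so genes seen only in cDCs could not enter. The count below depends on these choices, and the reverse count was not made. Of 5834 genes measured over all gated barcodes, 871 (14.9%) were at least 2-fold higher than in cDCs in both libraries. Some were nearly absent from cDCs and others were not. The unused marker Bst2 was at 323 and 301 CPM in cDCs, and Cd209d was only 1.32-fold and 1.40-fold higher in pDCs. Klk1, a tissue kallikrein, led with 2772 CPM in mock and 1986 in PTIR1 pDCs against 1 and 0 UMIs in all cDC barcodes, so that in PTIR1 it was at least 525-fold higher (floor of 3 UMIs over the cDC gate). Its near copy Klk1b27 was at 592 and 501 CPM, and reads of these paralogs may be shared out uncertainly. Klk1 lies at chr7:44225360-44229618 (+) and Siglech at chr7:55768178-55778925 (+), in GENCODE vM21.

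Several genes known from lymphocytes were among the leading ones. Dntt, the template-independent DNA polymerase of antigen receptor assembly, was at 201 CPM in mock and 217 in PTIR1 pDCs, with 0 UMIs in cDCs of either library and 1.01 and 0.441 CPM in B cells. Iglc3, a lambda light chain constant gene, was at 916 and 950 CPM, near the 897 and 756 CPM of the B cell gate, although reads of Iglc2 and Iglc3 may be shared out uncertainly. Mzb1, a chaperone of antibody secretion, was at 329 and 279 CPM with 0 UMIs in cDCs. Igkc, the kappa constant gene, differed from these: at 362 and 573 CPM in pDCs it was far below the 11620.5 and 6022 CPM of B cells. Cd4 was at 170.5 and 153.5 CPM and also at 0 UMIs in cDCs.

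Cd8b1, the beta chain of the CD8 coreceptor, was also among the leading genes. It was at 444 CPM in mock and 420 in PTIR1 pDCs, against 0.989 and 1.26 in cDCs, 3.53 and 0.662 in B cells and 8.48 and 7.51 in macrophages. Gated barcodes held 20.4% of all Cd8b1 UMIs of the kept mock barcodes and 50.6% of those of the kept PTIR1 barcodes. The level over all kept barcodes was 29.8 CPM in mock and 12.02 in PTIR1, a ratio of 0.403, whereas that in single-lineage pDCs was 545 and 555 CPM.

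The transcription factors of pDC identity were at like levels in mock and PTIR1. In single-lineage barcodes Tcf4, the master factor, was at 2106 CPM in mock and 2070 in PTIR1, a ratio of 0.983 (0.920 to 1.05). Irf8, which dendritic cells need for their development, was at 3679 and 3610 CPM, and Bcl11a at 757 and 713. The Ets factor Spib (337 and 342 CPM) and Runx2 (748 and 736.5) were also alike. A gene was called when its CPM differed at least 1.5-fold and the interval left out 1. Of the 4506 genes measured in single-lineage barcodes (at least 50 UMIs over both libraries and a UMI in at least 5% of the barcodes of a library), 114 (2.53%) were called higher in PTIR1 and 151 (3.35%) lower, and the median log2 ratio was -0.05. Of the 9 transcription factors 0 were called, with a median of -0.02.

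Enzymes, secretory and surface genes of pDCs were also alike, with small shifts. Of 20 enzyme and trafficking genes 0 were called and the median was -0.02. Pld4, an endosomal nuclease that degrades TLR9 ligands, was at 1028 CPM in mock and 1026 in PTIR1, and Pacsin1, an adaptor that pDCs need for their interferon response, at 321 and 351. Klk1 was lower by less than the 1.5-fold limit, at 3214 and 2676 CPM (0.832, 0.787 to 0.881). Bst2, the tetherin that also marks pDCs, was at 3538 and 3324 CPM (0.940, 0.892 to 0.989). Of 16 surface genes measured 14 had ratios under 1, as did 2549 of all 4506 measured genes. Of the 16, 1 was called (lower, against 3.35% of all measured genes), and the median was -0.09. That gene was Ly6a, which codes for Sca-1 and is itself an interferon target. Ly6c2, another Ly6 family member, was at 2669 and 2000 CPM (0.749, 0.703 to 0.799) and was not called.

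**Figure D2:**
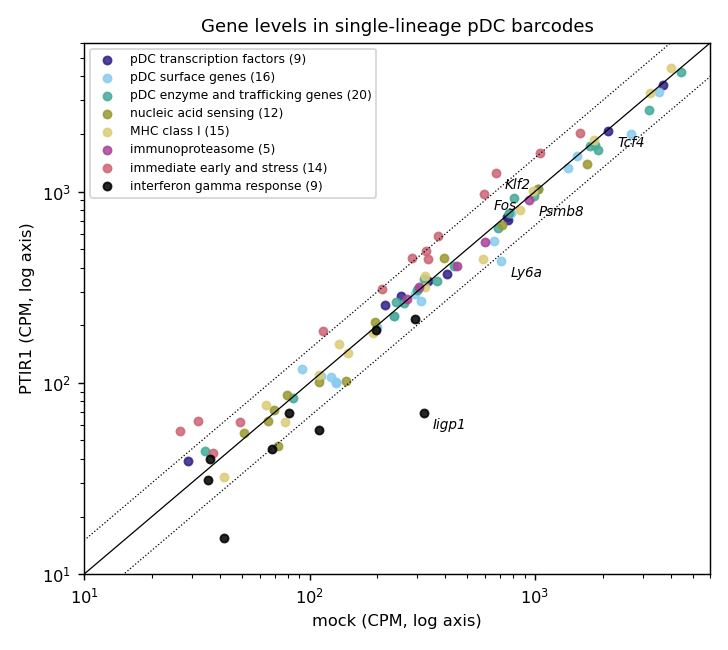
Each point is a gene of a list, with its level in single-lineage pDC barcodes of mock (horizontal) and PTIR1 (vertical) in CPM on log axes. The solid line marks equal levels and the dotted lines a 1.5-fold difference. Tcf4 and Psmb8 lie near the line, Klf2 and Fos above the upper dotted line, and Iigp1 and Ly6a below the lower one.

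The sensing machinery was present and the interferons were not seen. Tlr7, the endosomal receptor for single-stranded RNA, was at 196 CPM in mock and 208 in PTIR1 single-lineage barcodes, 1.07-fold (0.857 to 1.32). Tlr9, the receptor for CpG DNA, had 10 and 5 UMIs there and was under the limit for a measured gene. Irf7, the factor that drives interferon genes, was at 397 and 449 CPM, and Unc93b1, which carries the receptors to endosomes, at 717 and 672. Of 12 sensing genes measured 1 was called, Chuk, a kinase of NF-kappa B signalling (72.7 and 46.6 CPM, 0.641, 0.416 to 0.974). Of all measured genes 3.35% were called lower.

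Type I and III interferon genes had 0 UMIs in the gated barcodes of both libraries. This covered 19 genes, and 0 of 103 mock and 0 of 107 PTIR1 barcodes allow a share of up to 2.91% and 2.80% of barcodes with a UMI. The whole libraries held 89 and 37 UMIs of these genes. The Ifna genes are near copies of each other, and reads that match several copies may not have been counted. Il12b, Il6 and Il10 were also at 0 UMIs in the single-lineage barcodes. Ccl4, a chemokine that draws monocytes and T cells, was at 782.5 CPM in mock and 834 in PTIR1 (1.07, 0.957 to 1.19), and 1 mock barcode held 21.9% of its mock UMIs. Ccl3, its neighbour in function, was called lower in single-lineage barcodes (68.4 and 33.7 CPM) but higher over all gated barcodes (106 and 286 CPM, where 280 of 5837 genes, 4.8%, were called higher and 212, 3.63%, lower). Macrophage markers moved with the latter value, and their part in it was not tested. The former rested on few barcodes: of its 64 mock UMIs in single-lineage barcodes, 1 barcode held 23 and another 20, and the highest of PTIR1 held 4 of 26. Without the highest barcode of each library, an alternative added after the data were seen, Ccl3 was not called (0.650, 0.369 to 1.12).

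Antigen presentation was examined because the series concerns the immunoproteasome, the form of the proteasome that trims peptides for MHC class I. In single-lineage pDCs of 5 immunoproteasome genes 0 were called, with a median log2 ratio of -0.06. The catalytic subunit Psmb8 (chr17:34197721-34201454, +) was at 942 CPM in mock and 901 in PTIR1, 0.957-fold (0.865 to 1.06). Psmb9 was at 450 and 409 CPM (0.909, 0.783 to 1.05), Psmb10 at 270 and 274 (1.02, 0.841 to 1.22), and the activator subunits Psme1 at 600 and 544 (0.907, 0.797 to 1.03) and Psme2 at 307 and 318. The limits of these intervals lie inside the 1.5-fold limit. The 7 constitutive subunits had a median of -0.03 with 0 called.

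MHC class I and II genes were not called either. Of 15 class I genes 0 were called and the median was 0.00. H2-D1 was at 3990 CPM in mock and 4419 in PTIR1 (1.11, 1.06 to 1.16), B2m, the shared light chain, at 3228 and 3262, and the peptide transporter Tap1 at 110.1 and 110.0. Pdia3, which helps load class I, was lower at 587 and 441 CPM (0.752, 0.655 to 0.862) without reaching the limit. Reads of near-identical H2 genes may be shared out uncertainly.

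MHC class II genes had a median log2 ratio of 0.12, with 0 of 8 called. Cd74, the class II invariant chain, was at 3509 CPM in mock and 4292 in PTIR1 (1.22, 1.16 to 1.28), and H2-Aa at 1424 and 1703 (1.20, 1.11 to 1.29). Their sum varied widely among barcodes. It ran from 1.76 to 337 UMIs per 10000 in mock, with a median of 57.3 and quartiles of 17.0 and 114, and from 0 to 247 in PTIR1, with a median of 79.1 and quartiles of 43.2 and 123. Cd74 and H2-Aa went together over single-lineage barcodes, with Spearman's rho of 0.94 in mock (n = 78) and 0.87 in PTIR1 (n = 79), a description over barcodes that share a library and a depth. By contrast, the 9 transcription factors had quartiles of 74.1 and 95.5 UMIs per 10000 in mock and 75.2 and 96.8 in PTIR1.

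Immediate early genes, which are switched on within minutes of a stimulus or of tissue handling, were higher in PTIR1 pDCs. Of 14 measured in single-lineage barcodes 14 had ratios over 1 and 8 were called higher, with a median log2 ratio of 0.63. Of all 4506 measured genes 1957 had ratios over 1 and 2.53% were called higher. Klf2, a factor of lymphocyte quiescence and trafficking (chr8:72319033-72321656, +), was at 669 CPM in mock and 1253 in PTIR1, 1.87-fold (1.69 to 2.07). Fos, a subunit of the AP-1 factor (chr12:85473890-85477273, +), was at 595 and 976 CPM, 1.64-fold (1.47 to 1.83). Jund, another AP-1 subunit, was at 1051 and 1595 CPM, 1.52-fold (1.39 to 1.65). Dusp1, a MAP kinase phosphatase, was at 114 and 186 CPM (1.63, 1.26 to 2.11) and Zfp36, which destabilises cytokine transcripts, at 285 and 449 (1.57, 1.34 to 1.85). Jun, Junb, Fosb, Btg2, Ier2 and Egr1 were measured too and were not called.

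The shift in these genes was spread over barcodes. The list's sum had a median of 54.5 UMIs per 10000 in mock single-lineage barcodes (quartiles 36.7 and 79.04) and 83.4 in PTIR1 (60.2 and 111), so that the ranges overlapped and the middle of the PTIR1 distribution lay above the upper quartile of mock. A single barcode held at most 8.07% of the UMIs of Klf2, Fos, Jund, Zfp36 or Klf6 in either library. Egr1 stood apart, since 1 barcode held 74.3% of its 35 mock UMIs, and it was at 37.4 and 42.7 CPM. Over all gated barcodes the list's median was 1.17, with 15 of 17 called higher against 4.8% of all measured genes. Egr1 was at 41.4 and 254 CPM there.

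Immediate early RNA was also higher in the PTIR1 library as a whole. Fos over all kept barcodes was at 1401 CPM in mock and 2065 in PTIR1, a ratio of 1.47, and Klf2 at 405 and 850 CPM. The part of RNA from other cells in the pDC values was not tested. The same list had a median of 0.22 in the cDC gate, 0.05 in B cells (396 mock and 772 PTIR1 barcodes) and 0.74 in macrophages (211 and 166 barcodes), over the members measured in each. In B cells Klf2 was at 3163 CPM in mock and 2601 in PTIR1, the opposite order to that in pDCs. These differences between cell types were not tested.

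**Figure D3:**
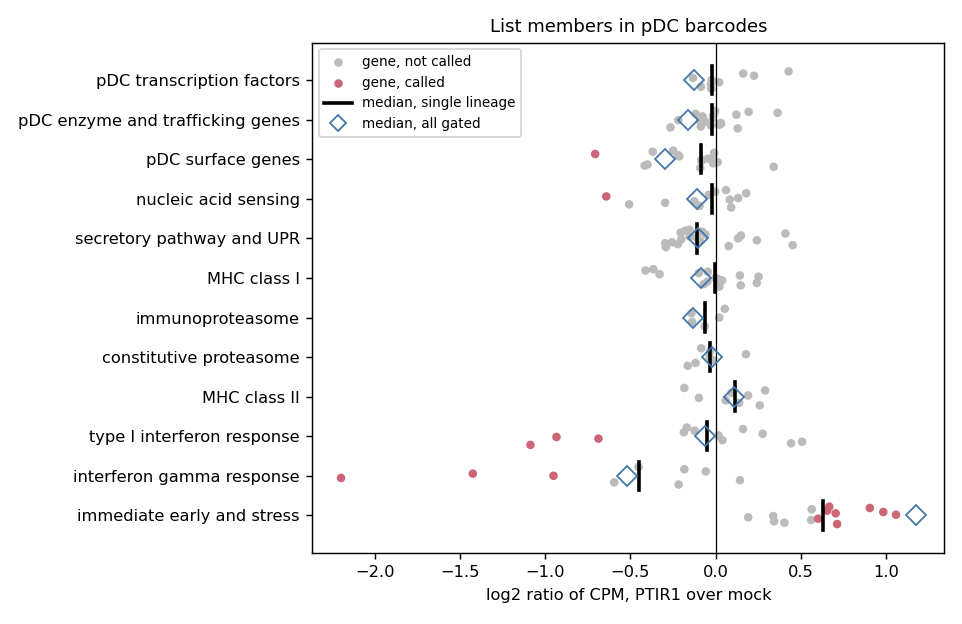
Each point is a list member measured in single-lineage pDC barcodes, at the log2 ratio of its CPM in PTIR1 over mock, coloured where it was called. Black bars are the medians of single-lineage barcodes, from -0.45 (interferon gamma response) to 0.63 (immediate early and stress), and open diamonds those of all gated barcodes, where the last is 1.17.

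Interferon gamma targets leaned lower in PTIR1 pDCs, with a minority called. Of 9 measured in single-lineage barcodes 8 had ratios under 1 and 3 were called lower, with a median log2 ratio of -0.45. Of all 4506 genes measured there, 2549 had ratios under 1 and 3.35% were called lower. Over all gated barcodes 10 of 13 were under 1 and 6 were called lower, with a median of -0.52. Of all 5837 genes measured there, 3294 were under 1 and 3.63% were called lower. The 3 called in single-lineage barcodes, Iigp1, Irgm1 and Igtp, are immunity-related GTPases, which attack the vacuoles of intracellular parasites. Of the 4 measured members with an upstream sequence in the RefSeq table (GRCm38.p6), 3 (Gbp7, Igtp and Irgm1) hold the letters GAAANNGAAA, the interferon-stimulated response element, on either strand in the 250 bases before the gene's start, against 2.98% of 32851 such windows in the table. It was 1 of 4 motifs searched on both strands in these windows and in those of the 12 immediate early genes with one. The gamma-activated site, TTCNNNGAA, was in 3 of the 4 interferon gamma windows against 7.02% of all, whereas the CArG box (1.47% of all) and the cyclic AMP response element, TGACGTCA (1.55%), were in 0. In the 12 immediate early windows the CArG box was in 1, the cyclic AMP response element in 2, the gamma-activated site in 1 and the interferon-stimulated response element in 0. The list counts are of genes, each matched by any of its windows, whereas the percentages are of single windows, so they are unlike measures. A match of letters is a description and not a binding site. The windows of Igtp and Gbp7 are shown for the place of the element, which is in capitals, at chr11:58199306-58199555 (+) for Igtp and chr3:142530086-142530335 (+) for the guanylate-binding protein gene Gbp7, where it is on the other strand.
Igtp: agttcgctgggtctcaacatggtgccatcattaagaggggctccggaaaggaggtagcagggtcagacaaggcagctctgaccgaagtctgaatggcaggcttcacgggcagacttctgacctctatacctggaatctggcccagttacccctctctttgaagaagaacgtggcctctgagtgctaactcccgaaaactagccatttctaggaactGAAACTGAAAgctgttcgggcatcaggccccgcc
Gbp7: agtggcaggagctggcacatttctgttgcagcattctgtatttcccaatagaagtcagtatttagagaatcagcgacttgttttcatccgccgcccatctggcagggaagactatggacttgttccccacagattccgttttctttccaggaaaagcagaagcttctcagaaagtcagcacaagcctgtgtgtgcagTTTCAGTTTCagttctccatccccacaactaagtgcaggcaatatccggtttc

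Iigp1 had the largest difference of the single-lineage barcodes on the lower side, by the interval end nearest to 1. It was at 321 CPM in mock (285 to 359) and 69.9 in PTIR1 (52.5 to 91.2), 4.59-fold lower in PTIR1 (3.42 to 6.25). Of 78 mock barcodes 27 had a UMI and 11 had 5 or more, and of 79 PTIR1 barcodes 18 and 3. After thinning each barcode to 1000 UMIs the shares with a UMI were 10.3% and 5.06%, against 1.26% and 0.389% in B cells (medians of 4375.5 and 4593 UMIs). The most loaded barcode held 96 UMIs in mock, 32.0% of the sum, and 13 in PTIR1, 24.1%. The 3 highest held 191 of 300 UMIs in mock and 27 of 54 in PTIR1. Without these 3 in each library, an alternative added after the data were seen, Iigp1 was at 116.5 and 34.9 CPM, 3.33-fold lower (2.17 to 5.29). With each gene's highest barcode left out of all gated barcodes, also added then, the log2 ratio was -2.10 against -2.34 with it. The other classes had the same order: Iigp1 was at 169 CPM in mock and 93.3 in PTIR1 cDCs, 30.7 and 11.0 in B cells, and 215 and 57.8 in macrophages.

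The other GTPase genes differed by smaller amounts. Irgm1 was at 110.1 CPM in mock and 57.0 in PTIR1, 0.517-fold (0.355 to 0.743), with no barcode above 15.9% of its UMIs. Igtp was at 41.7 and 15.5 CPM, 0.373-fold (0.178 to 0.726), from 39 and 12 UMIs, and had too few UMIs for a call without the highest barcode of each library. Gbp7 was at 68.4 and 45.3 CPM (0.662, 0.426 to 1.02) and was not called. Irf1, an early target, was at 197 and 189 CPM (0.961, 0.768 to 1.20). The chemokine Cxcl9 was called lower over all gated barcodes (84.4 and 11.9 CPM), but 1 barcode held 82.4% of its mock UMIs and the single-lineage barcodes held 10 and 4 UMIs. Gbp genes are near copies of each other, and their reads may be shared out uncertainly.

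The type I interferon targets had no common direction. Of 12 measured in single-lineage barcodes 6 had ratios over 1 and 6 under, with a median of -0.05. Called lower were 3 of them, against 3.35% of all measured genes. Those were Ifit2, which binds viral RNA and of which 1 barcode held 51.9% of mock and 52.4% of PTIR1 UMIs, Usp18, an inhibitor of the interferon receptor (83.4 and 51.8 CPM), and Xaf1 (39.6 and 20.7 CPM). Without the highest barcode of each library Ifit2 was still called, at 55.6 and 25.9 CPM (0.466, 0.263 to 0.794), and Usp18 was not (0.617, 0.369 to 1.01). Without the 3 highest, Ifit2 was at 20.3 and 18.1 CPM and had too few UMIs for a call. Isg15, a ubiquitin-like modifier, was at 96.2 and 131 CPM (1.36, 1.01 to 1.83), and Ifi27l2a at 1112 and 989. The receptor chains Ifnar1 (222 and 272 CPM) and Ifnar2 (608 and 603) were not called.

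**Figure D4:**
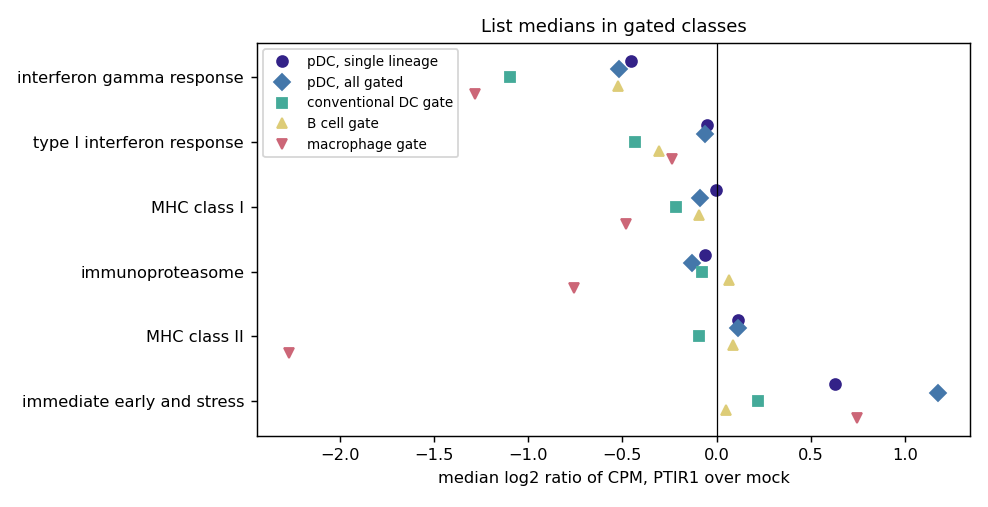
Points are the medians, over measured members of 6 lists, of the log2 ratio of CPM in PTIR1 over mock in the pDC barcodes and in 3 other gated classes. The interferon gamma list lies below 0 in every class shown, at -0.45 in single-lineage pDCs and -1.28 in macrophages, and the MHC class II list at 0.12 in single-lineage pDCs and -2.27 in macrophages.

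The size of these medians differed between the cell types. The interferon gamma list had a median of -1.09 in cDCs, -0.52 in B cells and -1.28 in macrophages, over 16, 16 and 21 measured members. MHC class II, at 0.12 in single-lineage pDCs, was at -0.09 in cDCs, 0.09 in B cells and -2.27 in macrophages. The immunoproteasome list, at -0.06 in pDCs, was at -0.08, 0.07 and -0.76. The members measured were not the same in each class, and the differences between classes were not tested.

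Ly6a, Cd8a, Cd209a and Cd24a, surface genes that were uneven among pDCs, were called lower in PTIR1. Ly6a (chr15:74994877-74998031, -) was at 710 CPM in mock and 435 in PTIR1, 1.63-fold lower (1.43 to 1.87), with a UMI in 44 of 78 and 40 of 79 barcodes and 5 or more in 27 and 17. Thinned shares were 25.6% and 16.5%, against 2.53% and 2.85% in B cells. Over all kept barcodes it was at 316 and 131 CPM. Ly6a was also lower in PTIR1 cDCs (715 CPM in mock and 458 in PTIR1) and macrophages (699 and 97.6). In B cells it had the opposite order (41.8 and 72.3). Its ranges overlapped, from 0 to 106 UMIs in mock and 0 to 50 in PTIR1.

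Cd8a (chr6:71373427-71379173, +), the alpha chain of CD8, was at 102 CPM in mock and 33.7 in PTIR1, 3.02-fold lower (1.94 to 4.85), while Cd8b1 was at 545 and 555. Of 78 mock barcodes 26 had a UMI, and of 79 PTIR1 barcodes 10. Thinned shares were 12.8% and 1.27%, against 0.253% and 0.130% in B cells, where Cd8a was at 1.01 and 0.662 CPM. Over all kept barcodes Cd8a was at 31.7 and 7.02 CPM, a ratio of 0.221, so that it was lower in the whole PTIR1 library too, and the part of free RNA in the difference was not tested.

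Cd209a, a lectin of monocyte-derived and conventional dendritic cells, was at 262 CPM in mock and 114 in PTIR1, 2.30-fold lower (1.80 to 2.97). UMIs of it were found in 40 mock and 29 PTIR1 barcodes. Thinned shares were 15.4% and 6.33%, against 0.253% and 0.259% in B cells. Over all kept barcodes Cd209a was at 19.2 CPM in mock and 11.6 in PTIR1, so that it was lower in the whole PTIR1 library too. It was at 1022 and 746 CPM in the cDC gate, which uses this gene. Macrophages (7.67 and 8.03) and B cells (2.02 and 2.87) had low levels in the opposite order. Of the gated barcodes, 16 in mock and 5 in PTIR1 also passed the cDC gate, all with Cd209a, and 6 and 2 of them with Clec9a. Xcr1 and Zbtb46, which define cDCs, were at 0 UMIs in all gated barcodes of both libraries. Their 0 in the overlap therefore says nothing of it. Clec9a, a receptor for dead cells, was at 52.4 and 31.1 CPM (0.593, 0.348 to 0.985). The list of cDC genes had no common direction. Of 7 measured in single-lineage barcodes 3 had ratios over 1 and 4 under, with 1 called higher, 2 lower and a median of -0.04. Over all gated barcodes 4 of 10 were called higher and 3 lower, with a median of 0.33. Of all measured genes 2.53% were called higher and 3.35% lower in single-lineage barcodes, and 4.8% and 3.63% over all gated barcodes. The part of a second cell in these droplets was not tested.

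Cd24a, a mucin-like surface protein, was at 79.1 CPM in mock and 18.1 in PTIR1, 4.37-fold lower (2.45 to 8.37), with a UMI in 31 of 78 and 8 of 79 barcodes. Thinned to 1000 UMIs the shares were 5.13% and 0%, where 0 of 79 allows up to 3.80%, against 0.948% and 3.01% in macrophages (medians of 21239 and 20345.5 UMIs), 26.3% and 18.4% in B cells, and 16.0% and 14.3% in cDCs. Over all kept barcodes Cd24a was at 37.1 and 46.5 CPM, the opposite order. Other genes with large differences on this side were Gcnt2, a glycan-branching enzyme (60.9 and 15.5 CPM), Ccnd1, cyclin D1 (266 and 139), the co-chaperone St13 (176 and 89.3), Ssbp4 (97.3 and 45.3), and Coro1c, an actin-binding coronin (48.1 and 18.1).

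**Figure D5:**
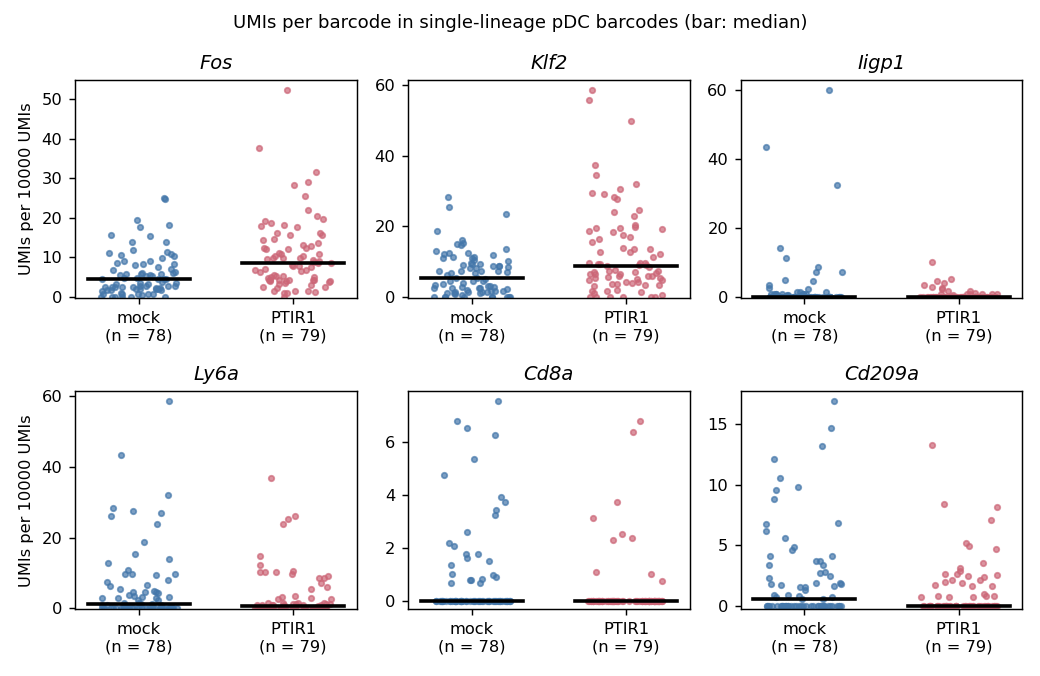
Each point is a single-lineage pDC barcode, at its UMIs of the gene per 10000 UMIs, for 78 mock and 79 PTIR1 barcodes. Black bars are medians. Fos and Klf2 shift as a whole distribution with overlap, whereas Iigp1, Ly6a, Cd8a and Cd209a are at or near 0 in most barcodes and differ in the number of barcodes with high values.

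On the higher side, the leading genes beside the immediate early ones included genes of other cells. Cxcl2, a neutrophil chemokine, was at 79.1 CPM in mock and 245 in PTIR1 (3.09-fold, 2.35 to 4.10), and Spp1, osteopontin, at 187 and 333. Over all kept barcodes Cxcl2 was at 3015 and 5037 CPM and Spp1 at 3565 and 5151, so the pDC levels were 2.62% and 4.86% of the library level for Cxcl2, and 5.25% and 6.46% for Spp1. Lyz2, a gene of macrophages and neutrophils, was at 3.91% and 4.84% of its library level in the same barcodes. Their part as free RNA was not tested.

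Tsc22d3, a glucocorticoid-induced leucine zipper, was at 90.9 CPM in mock and 199 in PTIR1 (2.19-fold, 1.67 to 2.89), and over all kept barcodes at 78.4 and 118. Hs3st1, a heparan sulphate sulphotransferase, was at 63.1 and 129 CPM (2.05-fold, 1.47 to 2.88), against 3.29 and 5.76 over all kept barcodes. Itga4, an integrin chain used for entry into tissue, was the only called member of 9 trafficking receptors, at 192 and 303 CPM (1.57-fold, 1.29 to 1.92). Of all measured genes 2.53% were called higher. Ccr2 (390.2 and 357 CPM) and Cxcr3 (99.4 and 90.6), which guide pDCs to inflamed sites, were not called. Chd3, Zfp36l1, Ifrd1, Dennd4a and Ddx3y completed the 12 leading genes, with ratios from 1.65 to 2.68. Igkc was also called higher (429 and 651 CPM). In the B cell gates of 396 and 772 barcodes it was at 11620.5 and 6022 CPM, and the part of B cell RNA was not tested.

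Over all gated barcodes the 12 leading genes in each direction included genes of other lineages. Mmp9, a gelatinase of neutrophils and osteoclasts, was higher in PTIR1 with 3 and 384 UMIs, of which 1 barcode held 96.1%. Cma1, a mast cell chymase, was lower with 399 and 7 UMIs, and 1 mock barcode held 88.7%. The collagen partner Dcn (1 and 171 UMIs) and the alarmins S100a8 (48 and 486) and S100a9 (96 and 852) belong to fibroblasts and neutrophils, whose markers also moved in these sums. Only Iigp1, Cd209a, Ccnd1 and Cd8a were among the 12 leading genes, on the lower side, both over all gated and over single-lineage barcodes.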

How the data were processed

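The deposited files held UMI counts per gene and barcode, made by the authors with Cell Ranger 5.0.0 per the file headers, from libraries of 3' transcript ends with a kit of version 3.1 per the labels' protocols. The submitters' processing notes also name Seurat 3.2.3 and mm10. The annotation is not given in the sources used here. The members and gene lists were chosen with earlier results of these data known. Counts were summed over gated barcodes and divided by their total (CPM). A gene was measured with at least 50 UMIs over both libraries and a UMI in at least 5% of the barcodes of a library. Intervals of CPM ratios came from the exact binomial test conditional on the gene's total, those of levels from the Poisson distribution, and those of shares by the Clopper-Pearson method. The ratio of shares has a normal interval on the log scale. A count of 0 allows up to 3 counts. UMI counts at 3' ends were not scaled by gene length. The cDC gate summed Xcr1, Clec9a, Cd209a and Zbtb46, the B cell gate Cd79a, Ms4a1 and a further B cell gene, and the macrophage gate C1qa, C1qb and C1qc with Adgre1 at 1 or more. Barcodes in more than 1 gate were left out of these classes. Genes named were list members and the 12 in each direction ranked by the interval end nearest to 1, without mitochondrial, ribosomal protein, immunoglobulin, Gm and Rik genes. Some genes that this rule selects are not reported here. For genes high against cDCs they were the first 15 by the lower fold of the libraries, from which examples are given. Cd4, Cd24a's thinned share and Igkc were looked at after their values were seen. Of 414 list genes looked up in GENCODE vM21, 414 carried the same symbol, and 2 list genes had no row of their own. Doublets were left in, and Scrublet scores were used in an alternative. The code was tested on simulated data. Scripts ran in Python 3.11.15 with scanpy 1.11.5, scipy 1.17.1, matplotlib 3.10.9, pandas 2.3.3 and numpy 2.4.6.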

Additional observations from a re-analysis of the deposited data

Results flagged for a closer look

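The list of cytokines and chemokines of pDCs had median log2 ratios of opposite sign in 2 gated classes. It was 0.49 over 8 measured members in all gated pDC barcodes and -0.49 over 7 in B cells, a difference of 0.99 that was not tested. In single-lineage pDC barcodes the list's median was -0.01 over 4 members.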

How the results depend on the processing

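No paired analysis was possible because each group had 1 library. The 15 gate, depth, doublet and scaling alternatives were planned; 5 others, the single-lineage barcodes, these with at least 3000 UMIs, leaving out each gene's highest barcode, and the single-lineage barcodes without each gene's highest or 3 highest, were added after the data were seen. Leaving out barcodes with 2 or more UMIs of another lineage kept 5 mock and 13 PTIR1 barcodes, moved the log2 ratio of shares from 0.07 to 1.39, and gave no measured interferon gamma target. Genes higher in PTIR1, 280 over all gated barcodes, numbered 26 under that setting, 120 without the highest Scrublet scores, 22 after thinning, 169 at 100 UMIs per gene, 114 in single-lineage barcodes, 108 in those of at least 3000 UMIs, and 94 and 73 in single-lineage barcodes without the highest and the 3 highest. Genes lower, 212, numbered 24, 13 and 106 under the first, the thinned and the 100-UMI settings, and 141 in single-lineage barcodes without the 3 highest. The interferon gamma median, -0.52, was -1.16 from 1 gene after thinning. The immediate early median, 1.17, was 0.82 with the gate at 0.1%, 0.96 with Siglech alone, 0.89 without the exclusion genes, 0.79 without 2 UMIs of another lineage, 0.64 without the highest Scrublet scores, 0.78 with equal weights, 0.86 thinned, 0.63 in single-lineage barcodes, 0.62 in those of at least 3000 UMIs 0.97 without the highest barcodes, and 0.67 in single-lineage barcodes without the highest and without the 3 highest. Reversed log2 ratios of single genes were -0.26 (Bcl2a1d) and -0.87 (Ccl5) without the exclusion genes, -0.11 (Bcl2a1d), -1.20 (Ccl3), -0.33 (Id2) and -0.47 (Lilrb4a) without the highest Scrublet scores, -0.16 (Btg2), -0.16 (Fosb) and -0.042 (Igkc) without 2 UMIs of another lineage, -0.14 (Fcgr2b) with equal weights, -1.02 (Ccl3) and -0.060 (Socs3) in single-lineage barcodes, -0.99 (Ccl3) and -0.13 (Socs3) in those of at least 3000 UMIs, -0.62 (Ccl3) and -0.15 (Socs3) in single-lineage barcodes without the highest, and -0.17 (Socs3) without the 3 highest. The causes were not tested. Of 453 list medians 419 moved by no more than the median half-width of their members' intervals. That is the counting error of a typical single gene, a loose limit for a median of several genes. Of 4903 gene ratios 4697 kept their call or stayed uncalled, which does not limit how far a ratio moved.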
